A study of Mus musculus with 4 samples.

Results

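The Sox and T-box genes encode 2 families of developmental transcription factors, and their transcription start regions were compared here between E14.5 mouse liver and yolk sac. The members were the protein-coding genes of GENCODE release M21 named Sox or Tbx with a number, plus Eomes and Tbr1. Sox17, Sox18, Tbx20, Sry, Mga and brachyury (T) were left out. This gave 31 members, 17 Sox and 14 T-box genes, of 21951 protein-coding genes. The data are 4 PRO-seq libraries, with 2 replicates of each tissue. PRO-seq, a nuclear run-on method, maps where RNA polymerase is actively transcribing. Each library came from the tissue of 6 pooled embryos of C57BL/6J mothers, and the fathers were of mixed C57BL/6J and CAST/EiJ background, chosen to carry only CAST/EiJ alleles of Dlk1/Gtl2, a locus of chromosome 12. Liver and yolk sac share this cross, age and pooling. No label says that the 2 pools of a tissue came from separate litters, so the spread between replicates may be partly technical.

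Sox proteins bind DNA through a high mobility group (HMG) box, the domain first recognised in the sex-determining protein Sry, and T-box proteins bind through the domain first recognised in brachyury. Subfamilies of both share much of their sequence and often act in the same tissues. Sox genes are known for roles in neural progenitors, neural crest, cartilage, vessels and red cells, and T-box genes for roles in mesoderm, limb, heart and lymphocytes. In the fetal liver, which at this age is a site of definitive red cell formation, Sox6 is known as a repressor of embryonic globin genes. The yolk sac consists of visceral endoderm, mesoderm-derived mesenchyme and vessels.

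The files list dREG peaks, which are intervals that a classifier marks as transcription start regions, each with a score. The score has no unit and was not scaled between libraries, so it is given as a percentile within its own list. Since the lists differ in length, a percentile does not show a change between tissues. The liver lists held 24863 and 24333 peaks and the yolk sac lists 50525 and 43055. Read depth is unknown, so a gene without a peak had no call in the list and cannot be said to be silent. In bulk tissue, fewer cells of a type and less transcription per cell cannot be told apart. Peaks have no strand. Marker genes checked the labels: 9 of 9 for erythroid cells had a promoter peak in each liver list and 1 of 9 in each yolk sac list. Of 10 yolk sac endoderm markers, 8 and 7 had one in liver and 10 and 10 in yolk sac, and of 10 hepatic markers the counts were 8 and 7 in liver and 7 and 7 in yolk sac.

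Most members with a promoter peak had one in both tissues, and nearly all of these were Sox genes. A promoter peak is a peak that overlaps the 500 bp on either side of any annotated start of the gene. Liver replicates 1 and 2 had such peaks at 14 and 14 members, and yolk sac replicates 1 and 2 at 15 and 14. These are 45.2% and 45.2% of members in liver and 48.4% and 45.2% in yolk sac, against 56.1%, 57.9%, 63.8% and 62.4% of all coding genes in the same order. The values of the tissues overlapped. Of the 31 members, 12 had a promoter peak in all 4 libraries, against 53.8% of all protein-coding genes. Another 15 had none in any library, against 34.2% of coding genes. Eomes was the 1 member called in both yolk sac and neither liver library, a pattern shown by 5.25% of coding genes. No member showed the reverse, which 1.01% of coding genes did. The remaining 3, Tbx2, Tbx6 and Tbx10, differed between replicates of a tissue, where 5.73% of coding genes had such other combinations.

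The families differed in their shares. Of the 17 Sox genes, 11 were called at a promoter in every library and 6 in none, with no other combination. Of the 14 T-box genes, only Tbx3 had one in all 4, and 9 had none. For comparison, 14 of 39 Hox genes (35.9%) and 6 of 44 forkhead genes (13.6%) had promoter peaks in both yolk sac and neither liver library. These shares are descriptions and were not tested against each other.

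**Figure D1:**
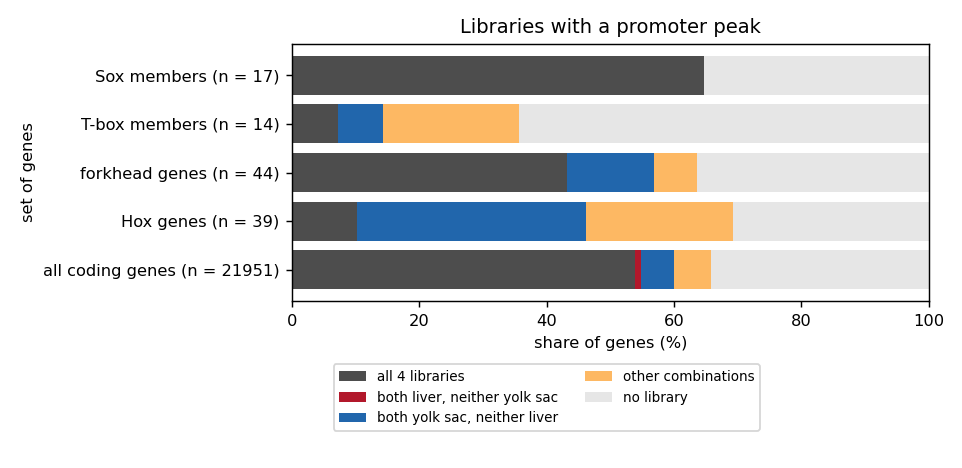
Share of genes (%, horizontal axis) in each set by the libraries in which a promoter peak was called, for 17 Sox members, 14 T-box members, 44 forkhead genes, 39 Hox genes and 21951 protein-coding genes. The Sox bar has 2 segments only, all 4 libraries (64.7%) and no library (35.3%), whereas 64.3% of T-box members were in no library.

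The promoter peaks of members ranked below the typical promoter peak of their list. In the 2 liver lists the median percentile of member promoter peaks was 48.4 and 45.6, against 65.0 and 64.1 for all promoter peaks of coding genes. In the yolk sac lists it was 59.3 and 66.0, against 68.5 and 69.1. Of the member promoter peaks, 11 of 16 and 10 of 16 in liver and 13 of 21 and 12 of 19 in yolk sac lay below the median for coding genes. These medians differed less in yolk sac replicate 2 than in the other 3 lists.

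**Figure D2:**
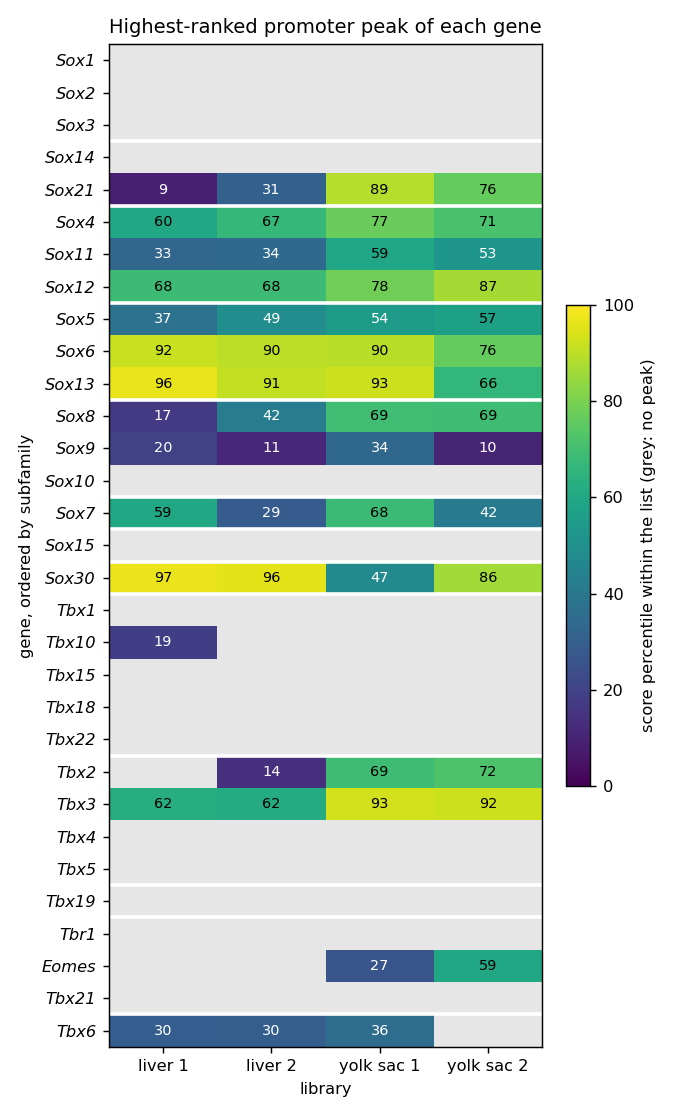
Score percentile within the list (colour and number) of the highest-ranked promoter peak of each of the 31 members (rows, ordered by subfamily) in each of the 4 libraries (columns), with grey where no peak was called. The SoxC and SoxD rows are filled in every library, and the SoxB1 rows are grey throughout.

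The SoxB genes were almost without calls. SoxB1 proteins maintain neural progenitors, and SoxB2 proteins are repressors that counteract them. The SoxB1 genes Sox1, Sox2 and Sox3 and the SoxB2 gene Sox14 had no peak in the gene or within 20 kb of it in any list. They are among 8 members without any such peak, with Tbx1, Tbx15, Tbx18 and Tbx22, and 21.4% of coding genes also had none. Of the neural markers Tubb3, Elavl3, Stmn2, Nes, Map2, Dcx, Gfap and Pax6, 2 of 8 were called at a promoter in each liver library, and 3 and 2 in yolk sac. Sox21, the other SoxB2 gene, was an exception. It lies on chromosome 14 (118233232 to 118237030), and its promoter peak stood at the 8.96 and 31.0 percentiles in liver and at 88.9 and 76.2 in yolk sac. The peak also overlaps a start window of Gm4675 and cannot be assigned to either gene.

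All 3 SoxC genes, which act in neural and mesenchymal progenitors, were called at a promoter in every library. Sox12 (chromosome 2, 152393611 to 152398063) stood at the 68.5 and 68.5 percentiles in liver and at 78.4 and 86.6 in yolk sac. Sox4 (chromosome 13, 28948919 to 28953713) stood at 60.0 and 66.6 in liver and at 77.2 and 71.4 in yolk sac. Sox11 (chromosome 12, 27334264 to 27342574) stood lower, at 32.9 and 34.3 in liver and at 59.3 and 52.7 in yolk sac. The Sox12 peak measured 3552 and 3502 bp in liver and 4202 and 4252 bp in yolk sac, and the Sox4 peak 2052, 2252, 3702 and 1702 bp in the same order. The Sox12 and Sox4 loci also held the same number of peaks in every library, 4 and 2. The second Sox4 region, chr13:28957451-28960202, lies at -5.11 kb from the start, with its midpoint outside annotated exons. It was called at the 82.8 percentile or above in all 4 lists. The bases before the RefSeq start of these shared promoters are shown because they carried the steadiest calls among the SoxC genes. Here and below, sequences come from RefSeq on GRCm38.p6, run 5′ to 3′ on the gene's strand, and stop where an annotated exon begins. Capitals mark the motifs searched on both strands. These were the TATA box (TATAAA), the CAAT box (CCAAT), the GC box (GGGCGG), the SOX core (AACAAT), the T-box core (GGTGTGA) and the GATA core (AGATAA).
Sox12, minus strand, chr2:152398064-152398296: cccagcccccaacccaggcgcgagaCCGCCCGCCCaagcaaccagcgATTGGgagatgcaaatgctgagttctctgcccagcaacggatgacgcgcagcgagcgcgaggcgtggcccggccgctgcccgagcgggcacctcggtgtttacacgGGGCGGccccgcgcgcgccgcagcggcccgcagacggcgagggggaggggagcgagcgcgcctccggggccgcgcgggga
Sox4, minus strand, chr13:28953714-28953949: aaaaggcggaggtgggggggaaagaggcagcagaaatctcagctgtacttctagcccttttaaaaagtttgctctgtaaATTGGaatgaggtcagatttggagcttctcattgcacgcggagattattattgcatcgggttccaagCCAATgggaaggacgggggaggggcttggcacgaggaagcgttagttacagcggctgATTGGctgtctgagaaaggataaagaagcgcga
The 250 bases before the Sox12 start held 35 CpG dinucleotides and 3 GC boxes, 2 of which overlap. Those before the Sox4 start held 11 CpG dinucleotides and 4 CCAAT boxes. The last of these CCAAT boxes began 8 bases before the start, in annotated exon, and is not shown. Over 32807 RefSeq promoters, 32.7% of such windows held a GC box and 33.8% a CCAAT box, and the median number of CpG dinucleotides was 6.

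The SoxD genes Sox5, Sox6 and Sox13 gave the richest pattern. SoxD proteins lack a known activation domain, and Sox5 and Sox6 cooperate with Sox9 in cartilage. All 3 had a promoter peak in every library, as did 53.8% of coding genes. All 3 also had more peaks at their locus in both yolk sac lists than in either liver list. This held for 36.2% of coding genes and for 52.2% of the 230 coding genes of 500 kb or more. The yolk sac lists are longer. With lists of equal length, members with more yolk sac locus peaks fell from 10 to 3, so such gaps depend on list length. Each SoxD gene had at least 1 annotated start called in both yolk sac and neither liver library. Such starts were not counted over all coding genes, so the trait cannot be called particular to SoxD genes. At Sox5 and Sox13 these starts stood at 32.7 and 32.1 in yolk sac replicate 2, outside its higher-scoring 50%. Sox6 was the 1 member that also had a start called in both liver and neither yolk sac library.

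Sox6 spans 568 kb of chromosome 7 (115470872 to 116038796) on the minus strand. Its 13 annotated starts form 9 clusters, where starts with overlapping windows count as 1. The first cluster was called in both yolk sac lists, at the 89.6 and 76.4 percentiles, and in neither liver list. The cluster 193 kb further along the gene was called in both liver lists, at the 78.3 and 90.0 percentiles, and in neither yolk sac list. Yolk sac replicate 2 had a peak at the 24.8 percentile more than 1000 bp from these starts, which overlapped the liver replicate 1 peak. The merged region there was thus called in 3 libraries and was not liver-only. The yolk sac peaks at the first cluster measured 2452 and 2502 bp, and the liver peaks at 193 kb 3002 and 2702 bp. A cluster at 179 kb was called in yolk sac only, at 32.4 and 22.3. The clusters at 4.28 and 7.75 kb were called in all 4 lists. The first of these stood at 11.2 and 38.6 in liver and at 66.2 and 68.5 in yolk sac, and the second at 91.5 and 90.1 in liver and at 38.7 and 53.0 in yolk sac. The remaining 4 clusters had no peak in any list.

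Both a liver-only and a yolk-sac-only start cluster were found in 54 of 12355 coding genes with more than 1 cluster (0.437%), and in 1 of the 11 such members. This count was chosen after the Sox6 values were seen. The first and the 193 kb clusters had the same calls with windows of 250 and 1000 bp, with only the higher-scoring peaks, with lists of equal length, and without each library in turn. The 179 kb cluster had no call in any library with the higher-scoring 50% of each list or with lists of equal length. The 4.28 kb cluster became yolk-sac-only with the higher-scoring 50%, and the 7.75 kb cluster was no longer called in all 4 lists with a window of 250 bp, with the higher-scoring 50% or with lists of equal length. The peaks at the first cluster also overlap a start window of 1110004F10Rik, a coding gene on the opposite strand 0.601 kb away. Those at 7.75 kb also overlap a start window of the antisense gene Sox6os. These calls can therefore come from either gene.

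The sequences before 3 Sox6 starts are shown, namely the yolk-sac-only first start, the liver-only start and, beside them, a start called in all 4 lists.
Sox6, first cluster, yolk-sac-only, minus strand, chr7:116038797-116038994: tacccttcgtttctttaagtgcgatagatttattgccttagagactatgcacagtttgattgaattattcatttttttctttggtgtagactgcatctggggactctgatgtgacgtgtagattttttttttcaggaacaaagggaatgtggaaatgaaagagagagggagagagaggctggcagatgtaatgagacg
Sox6, 7.75 kb, all 4 lists, minus strand, chr7:116031048-116031297: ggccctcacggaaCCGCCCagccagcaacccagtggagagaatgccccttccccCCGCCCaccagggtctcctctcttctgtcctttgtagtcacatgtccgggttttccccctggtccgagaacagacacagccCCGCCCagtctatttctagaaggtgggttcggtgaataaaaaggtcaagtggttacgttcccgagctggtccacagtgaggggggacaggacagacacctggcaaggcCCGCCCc
Sox6, 193 kb, liver-only, minus strand, chr7:115846152-115846390: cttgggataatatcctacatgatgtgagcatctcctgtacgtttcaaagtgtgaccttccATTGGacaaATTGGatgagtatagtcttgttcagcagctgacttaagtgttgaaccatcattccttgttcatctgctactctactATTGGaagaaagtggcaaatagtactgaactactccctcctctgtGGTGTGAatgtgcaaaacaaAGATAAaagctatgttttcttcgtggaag
The window of the 193 kb start held 2 CpG dinucleotides, 3 CCAAT boxes, 1 T-box core that began 60 bases before the start and 1 GATA core that began 40 bases before it. A GATA core was found in 9.99% and a T-box core in 3.33% of the 32807 windows. The window at 7.75 kb held 4 GC boxes and 10 CpG dinucleotides. The first window held 9 CpG dinucleotides and none of the 6 motifs. None of these motifs overlapped another kind of motif. A match describes the letters only.

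In the full lists, the body of Sox6 was also divided between tissues. Outside every annotated start window, the Sox6 locus held 24 regions after peaks of the 4 lists were merged. Of these, 6 were called in both liver and neither yolk sac library, 7 in both yolk sac and neither liver library, and 1 in all 4. The 6 liver-only regions lay between 86.7 and 208 kb from the first start, with midpoints outside annotated exons. The highest-ranked was chr7:115830451-115832052, with liver percentiles of 99.96 and 99.50, followed by chr7:115951201-115953052 at 94.8 and 94.9 and by chr7:115894401-115896102 at 87.6 and 80.0. The 7 yolk-sac-only regions lay between 172 and 470 kb, overlapping that range. The lower of their 2 percentiles was at most 31.1, so none was in the higher-scoring 50% of both yolk sac lists. The replicates could differ widely, as at chr7:115684151-115684802, which stood at 95.9 and 29.9. The region called in all 4 lists, chr7:115775951-115777302, stood at 90.8 and 99.7 in liver and at 88.9 and 90.9 in yolk sac. Across all coding genes, 18 (0.0820%) had at least 6 liver-only regions of this kind at their locus, a cut chosen after the Sox6 count was seen. This share was not adjusted for gene length. The Sox6 count was also 6 without each library in turn and with lists of equal length, and 5 with the higher-scoring 50%. Liver and yolk sac also differed in the erythroid markers (9 of 9 against 1 of 9 in every list), and the part of red cell precursors in the Sox6 pattern was not tested.

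**Figure D3:**
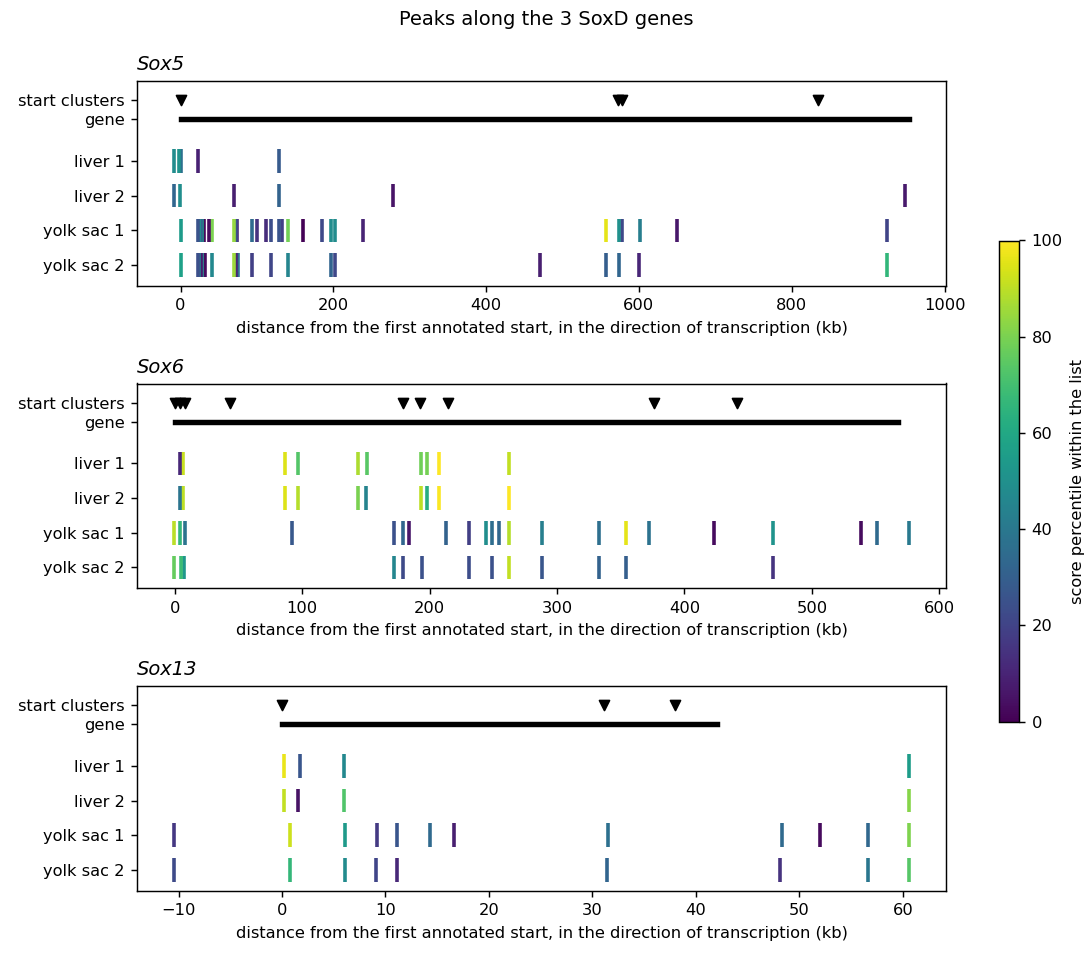
Peaks of the 4 libraries (coloured ticks, colour by score percentile within the list) along Sox5, Sox6 and Sox13, by distance from the first annotated start (kb), with the gene as a bar and start clusters as triangles. The Sox6 liver ticks between 86.7 and 208 kb have few yolk sac counterparts, and the Sox5 yolk sac ticks crowd within 250 kb of the start.

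Sox5, the longest member at 954 kb (chromosome 6, 143828425 to 144781977), had the widest gap between tissues. Its locus held 5 and 6 peaks in the liver libraries and 29 and 20 in those of yolk sac, or 5.5 ± 0.707 and 24.5 ± 6.36 (SD, n = 2). The tissues did not overlap in the full lists. The first start was called in all 4 lists, at the 37.3 and 48.9 percentiles in liver and at 54.3 and 56.9 in yolk sac. A cluster of 4 starts 572 kb further along was called in both yolk sac lists only, at 50.4 and 32.7. Of the 30 regions outside start windows, 15 were yolk-sac-only, 12 of them within 250 kb of the first start, and 1, upstream of the gene, was liver-only. Across coding genes, 16 (0.0729%) had at least 15 such yolk-sac-only regions, a cut chosen after the Sox5 count was seen. This count was not adjusted for gene length, and the median length of coding genes was 17.4 kb. The Sox5 regions ranked low, with a median lower percentile of 20.8, and 3 of the 15 were left with lists of equal length and 1 with the higher-scoring 50%. Per 100 kb of locus, Sox5 had 0.503 and 0.604 peaks in the liver libraries and 2.92 and 2.01 in the others. The medians over the 230 coding genes of 500 kb or more were 0.0869 and 0.109 in liver and 0.320 and 0.182 in yolk sac.

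Sox13, which is expressed in T cells and in arteries, lies on chromosome 1 (133382303 to 133424377). Its first start stood high in every list, at the 96.5 and 90.7 percentiles in liver and at 92.5 and 66.0 in yolk sac. These peaks measured 1352 and 1302 bp in liver and 2602 and 2552 bp in yolk sac. A second cluster, 31.1 kb along the gene, was called at 36.4 and 32.1 in yolk sac and not in liver. The locus held 4 and 4 peaks in the liver libraries and 12 and 9 in those of yolk sac, again without overlap in the full lists. These counts include peaks at starts of the neighbouring gene Etnk2, in a region called in all 4 lists and in a yolk-sac-only region. Outside start windows, 4 regions were yolk-sac-only against none liver-only. Part of the RefSeq window before the Sox13 start is annotated exon, and the rest is shown because this start ranked at the 66.0 percentile or above in every list.
Sox13, minus strand, chr1:133424378-133424462: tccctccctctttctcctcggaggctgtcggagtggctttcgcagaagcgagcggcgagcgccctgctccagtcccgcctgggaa
The whole window of 250 bases held 31 CpG dinucleotides and none of the motifs.

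Among the SoxE genes, which direct neural crest and cartilage, Sox9 and Sox8 had promoter peaks in all 4 lists and Sox10 in none. The Sox9 peak (chromosome 11, 112782224 to 112787760) was narrow and weak. It measured 202 and 302 bp in liver and 402 and 252 bp in yolk sac, and stood at the 19.5, 11.3, 33.5 and 10.3 percentiles. It was absent from all lists with the higher-scoring 50% and called only in liver with lists of equal length. The peak also overlaps a start window of BC006965. The Sox8 peak (chromosome 17, 25565892 to 25570686) stood at 16.8 and 42.4 in liver and at 69.5 and 68.9 in yolk sac. It also overlaps a start window of 2810468N07Rik. A yolk-sac-only region past the end of Sox8, chr17:25555101-25557352, stood at 98.1 and 89.1. The regions near Sox10 all overlapped starts of 1700088E04Rik or Polr2f. Of the 7 cartilage markers Col2a1, Acan, Col9a1, Col11a2, Comp, Matn1 and Hapln1, none had a promoter peak in either liver list and 4 and 3 did in yolk sac. Their part in the SoxD and SoxE calls was not tested.

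Sox7, Sox15 and Sox30 stand alone in their groups here. Sox7, a SoxF gene of vascular and extraembryonic endoderm (chromosome 14, 63943673 to 63950732), had a promoter peak in all 4 lists, at the 59.5 and 28.9 percentiles in liver and at 68.2 and 41.5 in yolk sac. Beside it, 5 and 6 of 8 endothelial markers were called in liver and 8 and 8 in yolk sac. Sox15 had no promoter peak, and its neighbourhood peaks all lay at starts of other genes. Sox30, known for its role in sperm formation (chromosome 11, 45980310 to 46017994), stood at 97.2 and 96.0 in liver and at 47.5 and 86.2 in yolk sac. With the higher-scoring 50% of each list and with lists of equal length, Sox7 and Sox30 each lost the call in at least 1 library. A yolk-sac-only region, chr11:46016601-46017952, lies near the end of the gene at the 90.5 and 88.9 percentiles.

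Of the T-box genes, the Tbx2 subfamily held the strongest calls. Tbx3, a repressor needed for expansion of liver progenitors (chromosome 5, 119670669 to 119684724), had a broad promoter peak in all 4 lists. It measured 1752 and 2852 bp in liver and 3952 and 2852 bp in yolk sac, and stood at the 62.2 and 61.6 percentiles in liver and at 93.1 and 92.5 in yolk sac. The peak also overlaps a start window of the antisense gene Tbx3os1. Tbx2, its close relative (chromosome 11, 85832551 to 85841948), was called at 68.9 and 72.0 in yolk sac, at 13.5 in liver replicate 2 and not in liver replicate 1. Its promoter peak also overlaps a start window of 2610027K06Rik. Locus peaks at Tbx2 numbered 1 and 2 in the liver replicates, against 5 and 4 in those of yolk sac, without overlap. The highest-ranked yolk sac peaks there, at 95.8 and 99.6, overlapped a start window of Bcas3 and lay at -10.45 kb from the Tbx2 start. The yolk-sac-only peaks also included a region at -6.2 kb from the start, chr11:85824851-85827852, at 53.6 and 52.8. Tbx4, which acts in the hindlimb and the allantois, and Tbx5, which acts in the forelimb and heart, had no promoter peak. The Tbx4 locus held 0 and 0 peaks in the liver libraries and 3 and 1 in those of yolk sac, and Tbx5 held 1 peak, in yolk sac replicate 1. Of 10 mesenchymal markers, 6 and 9 were called in the liver libraries and 10 and 10 in the others, and their part in the T-box calls was not tested.

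Eomes, which acts in early endoderm and trophoblast and later in natural killer cells, lies on chromosome 9 (118478212 to 118486132). Its promoter peak was called at the 26.5 and 59.4 percentiles of the yolk sac lists and in neither liver list. A second yolk-sac-only region, chr9:118496551-118497702, lies 18.9 kb past the start and ranked higher, at 86.4 and 98.4. The locus held 0 and 0 peaks in the liver libraries and 4 and 4 in those of yolk sac. In yolk sac replicate 1, 1 of these lies at a start of Gm33460 and 1 at a start of Golga4 at the edge of the locus. Yolk sac replicate 2 had a peak at the 11.6 percentile in the same merged region as the Golga4 start, but outside start windows. The liver peaks of that region fell outside the locus. In the higher-scoring 50% and with lists of equal length, the promoter call was left in 1 yolk sac library. The sequence before its RefSeq start is shown because Eomes is the 1 member with a promoter peak in both libraries of a tissue and in neither of the other.
Eomes, plus strand, chr9:118477939-118478188: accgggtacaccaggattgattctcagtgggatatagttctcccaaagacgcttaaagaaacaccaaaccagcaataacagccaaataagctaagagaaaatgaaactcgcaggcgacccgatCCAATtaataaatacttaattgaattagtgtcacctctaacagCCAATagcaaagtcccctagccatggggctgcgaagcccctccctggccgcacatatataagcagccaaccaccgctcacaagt
The promoter peaks began at 118478451, downstream of this window, and measured 602 and 752 bp. The window held 2 CCAAT boxes, 127 and 84 bases before the start, and 8 CpG dinucleotides. Its relatives Tbx21, the master factor of type 1 helper T cells, and Tbr1, a factor of cortical neurons, had no promoter peak. Tbr1 had 1 yolk-sac-only region within the gene, at 45.8 and 73.7. Of 8 T and natural killer cell markers, none was called in liver replicate 1 and 1 in each of the other 3 lists.

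Calls at the other T-box genes were few. Tbx6, a gene of presomitic mesoderm (chromosome 7, 126781483 to 126785560), had a promoter peak at the 29.8 and 30.4 percentiles in liver and at 35.6 in yolk sac replicate 1. Yolk sac replicate 2 had a peak only within 1000 bp. Tbx10 (chromosome 19, 3992752 to 3999512) had a promoter peak at the 18.5 percentile in liver replicate 1 only, and with a window of 1000 bp it was called in both liver and neither yolk sac library. Tbx10 was also the 1 member with more locus peaks in both liver lists, 5 and 6 against 4 and 4. These counts include peaks at starts of other genes, among them Acy3, Nudt8, Doc2g and Ndufv1. Tbx19, a factor of pituitary corticotrophs, and the Tbx1 subfamily genes Tbx1, Tbx15, Tbx18 and Tbx22, which pattern pharyngeal arches, mesenchyme and palate, had no promoter peak.

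Across whole loci, defined as the gene and 20 kb on either side, members had more peaks in yolk sac. The 31 loci held 52 and 53 peaks in the liver libraries and 113 and 89 in those of yolk sac, or 52.5 ± 0.707 and 101 ± 17.0 (SD, n = 2), a 1.92-fold difference. For all coding loci the ratio was 1.74-fold. Outside start windows, there were 22 and 22 peaks in the liver libraries and 71 and 54 in those of yolk sac, a 2.84-fold difference against 2.50-fold for all coding loci. The tissues did not overlap in either count, but with 2 libraries each the smallest exact permutation p is 0.333. With lists of equal length both ratios turned, to -0.21 and -0.21 on the log2 scale, where all coding loci gave -0.10 and -0.16. By member, 10 of 31 had more locus peaks in both yolk sac lists than in either liver list, against 36.2% of coding genes, and 1 had the reverse, against 5.87%. These shares are near the background.

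**Figure D4:**
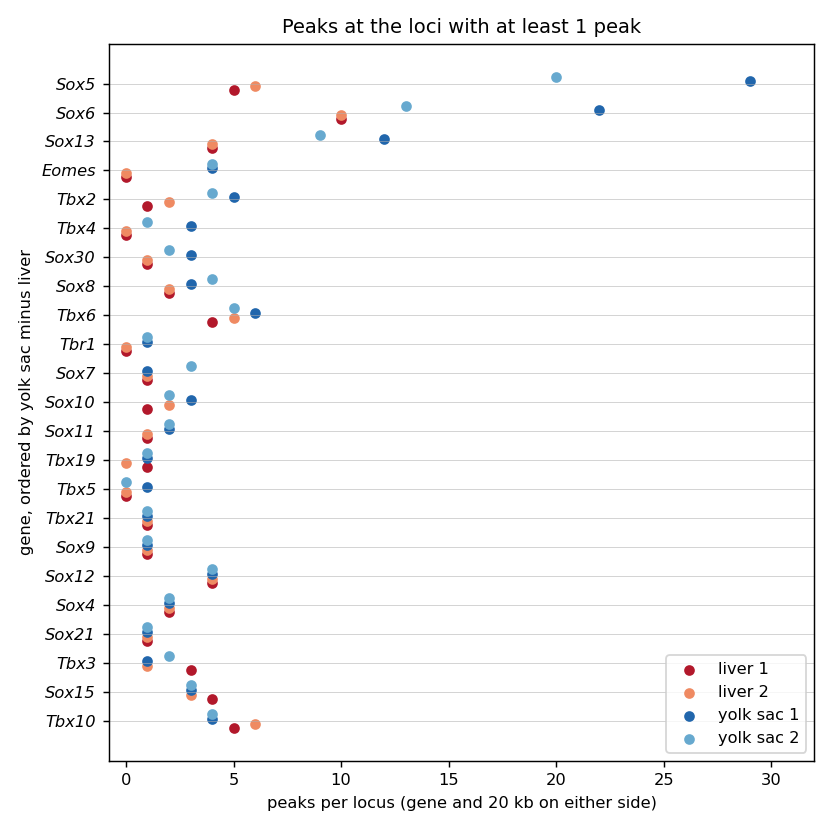
Peaks per locus (horizontal axis, the gene and 20 kb on either side) in each of the 4 libraries (points) for the 23 members with at least 1 peak, ordered by the mean in yolk sac minus that in liver. Sox5, Sox6 and Sox13 lead with 29 and 20, 22 and 13, and 12 and 9 peaks in yolk sac, and Tbx10 stands at the liver end.

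By region, the 31 loci held 134 merged regions, of which 42 were yolk-sac-only (31.3%), 8 liver-only (5.97%) and 35 in all 4 lists (26.1%). The shares over all merged regions were 33.0%, 6.62% and 25.7%. Outside start windows, 34 of 89 regions were yolk-sac-only, 7 liver-only and 7 in all 4, or 38.2%, 7.87% and 7.87%, against 40.3%, 8.01% and 8.92% overall. These shares were close to those of the whole lists, but the regions were unevenly spread. Sox5 and Sox6 accounted for all 7 liver-only regions outside start windows, and without these genes 12 of 35 regions were yolk-sac-only and none liver-only.

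Relatives, partners and reported targets of the members were counted in the same way. Over all coding genes, 53.8% were called in all 4 lists, 5.25% were yolk-sac-only, 1.01% liver-only and 34.2% in none. Of 23 genes listed as other HMG-box genes, such as the Wnt effectors Tcf7l1 and Tcf7l2, 19 had promoter peaks in all 4 lists. Tox2 had one in yolk sac only and Lef1 in none. The 23 include Capn15, which encodes a calpain and not an HMG-box protein. Of 26 partner and cofactor genes, 16 were called in all 4 lists, none in a single tissue and 6 in none, namely Nkx2-5, Pax3, Pax6, Pou3f1, Pou3f2 and Pou5f1. Of 29 reported target genes, 9 were called in all 4 lists and 12 in none. The target genes Col2a1, Col9a2 and Comp, which encode cartilage matrix proteins, Fgf10, a growth factor, and Cxcr3, a chemokine receptor, were yolk-sac-only, 17.2% of the list, and none was liver-only. Col2a1 and Comp are also among the cartilage markers. Hbb-y, the embryonic beta-type globin gene that Sox6 is known to repress, had no promoter peak in any list. Globin genes of similar sequence can share reads, so the missing call is uncertain.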

How the data were processed

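PRO-seq peaks of 4 libraries, 2 per tissue, were analysed. The deposited files list 1 set of peaks per library with a score. Per the submitters' processing notes the build was mm10 and Bowtie2 and bedtools were used. dREG appears in the file names, and its version, filters and read depth are not given in the sources used here. The lowest score was 0.80 in each list, and neighbouring peaks lay at least 548 bp apart.

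Starts and genes came from GENCODE M21 on GRCm38 and promoter sequences from RefSeq on GRCm38.p6, where 23 of the 31 members matched. Sox3, Sox7, Sox9, Sox10, Tbx2, Tbx3, Tbx5 and Tbx15 did not. Promoter peaks overlapped a start window of 500 bp on either side by at least 1 bp, and locus peaks had their midpoint in the gene or within 20 kb. Peaks that overlapped between lists were merged into regions. Functions were tested on simulated lists. The work used Python 3.11.15, numpy 2.4.6, pandas 2.3.3 and matplotlib 3.10.9. Tests between tissues are limited to the 6 assignments of 4 libraries.

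The members and gene lists were chosen with earlier results of these data known. All members are named. Values per library are given for members called in 1 tissue, shared members, the 5 with the widest gap in locus peaks and those whose replicates disagreed. Alternatives changed the window, the flank, the merging of regions, the share of each list used, the starts used, the members and the libraries. Start clusters and the counts of regions at Sox5 and Sox6 were added after seeing the data, and the regions at Tbr1 and Tbx19, the uncalled genes of the HMG-box, partner and target lists and the marker genes were named after their values were seen.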

Additional observations from a re-analysis of the deposited data

How the results depend on the processing

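The number of libraries limits every comparison, and read depth is unknown. With lists cut to the length of the shortest, 24333 peaks, the gap in members with a promoter peak became -2.5, the log2 ratio of locus peaks -0.21 and that of peaks outside start windows -0.21. The members called in yolk sac only then numbered 0 and in liver only 2 (Sox9 and Tbx6), those with more yolk sac locus peaks 3, and the yolk-sac-only and liver-only regions 10 and 13. When only the higher-scoring 50% were used, the gap in members with a promoter peak was 5, 5 members were called in all 4 lists, 5 in yolk sac only (Sox5, Sox8, Sox11, Sox21 and Tbx2), and 15 regions were yolk-sac-only. With a flank of 50 kb, 71 regions were yolk-sac-only and 14 liver-only. With only the first start of each gene the gap was 1.5 and 2 members were yolk-sac-only, Sox6 being the added one, and with a window of 1000 bp 1 member, Tbx10, was liver-only.

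Without each library in turn, the gap in members with a promoter peak ranged from 0 to 1, yolk-sac-only members from 1 to 2 (2 without liver replicate 2, by Tbx2), liver-only members from 0 to 1 (Tbx10 without liver replicate 2, Tbx6 without yolk sac replicate 1), liver-only regions from 9 to 13, the highest without liver replicate 1, and yolk-sac-only regions from 43 to 72, the highest without yolk sac replicate 2. In that setting Sox5 had 23 yolk-sac-only regions outside start windows. Adding brachyury, which had no promoter peak, and Mga, which had one in all 4 lists, moved no count by more than 1.5 times. No label says whether the replicate numbers pair the libraries. Over 21951 genes the replicate 1 deviations of liver and yolk sac correlated at -0.00716. With 2 pairs this value cannot show whether the libraries were paired. With the replicate number as a block the values stayed 0.5, 0.94 and 1.51, and the smallest exact permutation p was then 0.5.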

Other observations

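One region near a member was called in a single library at a very high rank. It lies at -13.7 kb from the first Tbx19 start, chr1:165174151-165174702, and stood at the 99.5 percentile of the liver replicate 1 list, with no peak in the other 3 lists. Its midpoint lies in an annotated exon.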
